A study of Mus musculus with 42 samples.

Results

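The comparison described here is that of cells sorted at day 10 of reprogramming for mCherry and GFP together (mCherry+/GFP+, below GFP+ cells) with cells sorted on the same day for mCherry without GFP (mCherry+/GFP-, below GFP- cells). Both come from the reprogramming system that the labels call totalx2. It holds 3 GFP+ and 3 GFP- libraries, 6 of the 42 libraries of the series, chosen by their source names, and the libraries are paired by line. Each of 3 lines, numbered 1, 2 and 3 here, gave 1 GFP+ and 1 GFP- library. All lines are male and carry 1 mCherry and 1 GFP allele over wild type, from a cross of B6- Tet1tm1.1Koh with B6;129S4-Pou5f1tm2Jae/J mice, whose strain names place the changed alleles at Tet1 and Pou5f1. Both groups therefore share the reporters, the mCherry+ gate and the day. The labels class the GFP+ cells as stage II and the GFP- cells as stage I intermediates. The age of the donor animals and the way in which the reprogramming factors were delivered are not given in the sources used here. A further 3 totalx2 groups of the same lines (day 8 GFP-, day 12 GFP+ and day 12 GFP-, 3 libraries each) entered the same statistical fit, so 15 libraries were fitted in all.

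Reprogramming turns a differentiated cell, here a fibroblast, into an induced pluripotent stem cell by forced expression of a few transcription factors. Fibroblast genes are shut down and epithelial genes are switched on early, and the cell's own network of pluripotency factors is switched on late and in few of the cells. Pou5f1 (Oct4) lies at the centre of that network, so a GFP at its locus marks cells in which the endogenous gene has been switched on. Tet1 encodes a dioxygenase that oxidises 5-methylcytosine and is itself induced on the way to pluripotency. Macrophages can be present in cultures of embryonic fibroblasts, and their marker genes were therefore read beside the other results.

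The 6 libraries were made from poly(A) RNA with a stranded kit. They held 7862215, 8084865 and 6540256 counts on genes in GFP+ cells of lines 1, 2 and 3, against 11633790, 10911378 and 11368880 counts in GFP- cells. Between 18838 and 19517 gene names had a count in them, and mitochondrially encoded genes took 2.52 to 3.28% of the counts. A level of 3 counts, taken as the floor of detection, is 0.258 to 0.459 CPM (counts scaled to a common library size) across these libraries. Levels below are CPM scaled by TMM over the 15 libraries and are not corrected for gene length, so they compare libraries and not genes. Values of 3 libraries are given in the order of lines 1, 2 and 3. A gene is called where the edgeR quasi-likelihood test with line as a block gave a Benjamini-Hochberg adjusted p under 0.05, and fold changes are log2 of GFP+ over GFP- with their standard error. The p-values rest on the spread left once line is blocked, pooled over the 15 libraries and moderated across genes. They do not measure the spread between these 3 lines, which the labels describe as independent.

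Of 14514 genes tested at day 10, 5140 (35.4%) were called. In GFP+ cells 2524 genes (17.4% of those tested) rose and 2616 (18%) fell, and the median log2 fold change over all genes tested was 0.0055. Large differences lay mostly on the side of the GFP+ cells: 957 called genes rose by more than 1 on the log2 scale, and 385 fell by more than 1. Among the 957, 35 had no count in any GFP- library, and among the 385, 3 had none in any GFP+ library. The direction was the same in all 3 lines for 5087 of the 5140 called genes, which is no separate check, as the calls rest on the same lines. For 4509 of the 5140 the 3 GFP+ values did not overlap the 3 GFP- values, which was so for 40.6% of all genes tested. In bulk libraries such as these, fewer cells of a type and less RNA per cell cannot be told apart.

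**Figure D1:**
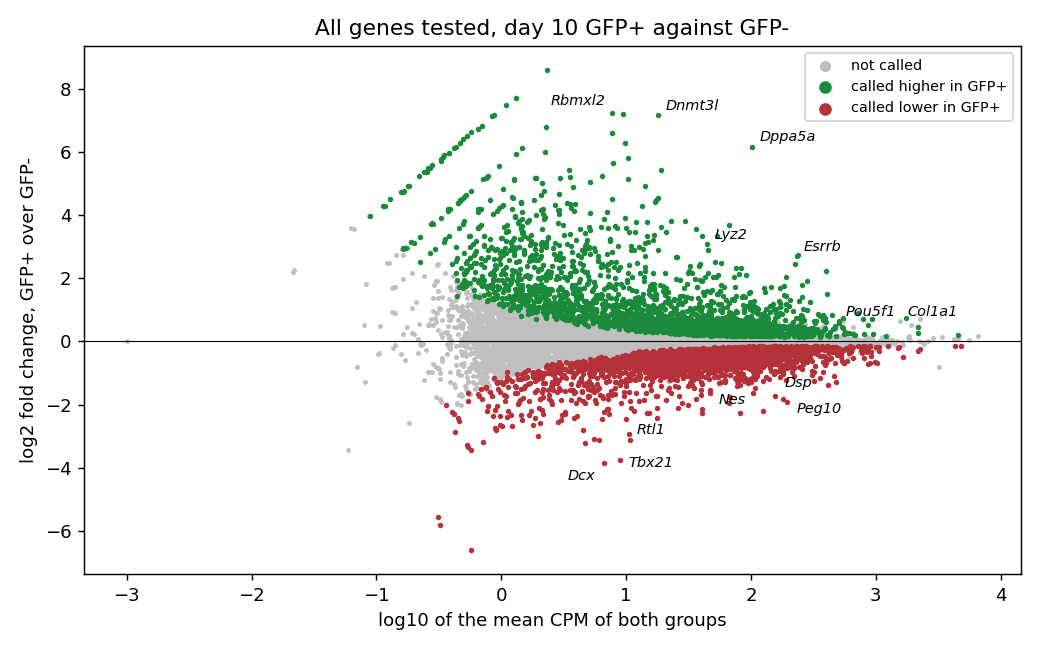
Each point is 1 of the 14514 genes tested, with the log10 of its mean CPM over the 6 day 10 libraries on the x axis and the log2 fold change of GFP+ over GFP- cells on the y axis. Green points were called higher in GFP+ cells (2524), red points lower (2616), grey points were not called, and the rows of points on slanted lines at the left are genes with no count in one of the groups.

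The gene that carries GFP was higher in the gate sorted for GFP, though it was not low in the other. Pou5f1 held 675, 576 and 588 CPM in GFP+ cells, against 468, 376 and 335 CPM in GFP- cells, with no overlap between the groups (log2 fold change 0.65 ± 0.08, edgeR adjusted p = 1.66e-05). Counts of a factor that may also have been delivered do not separate its own transcript from a delivered one. Tet1, the other locus altered in these lines, was at 539.6, 389 and 414 CPM in GFP+ cells, against 274, 254 and 200.5 CPM in GFP- cells (log2 fold change 0.88 ± 0.11, edgeR adjusted p = 3.71e-05). Every GFP+ library was above every GFP- library for Tet1 as well. Klf4, a reprogramming factor and naive gene, stood at 553, 475 and 494 CPM in GFP+ cells, against 622, 523 and 492 CPM in GFP- cells, and was not called (edgeR adjusted p = 0.208). Myc, the proto-oncogene used in many factor cocktails, fell to 494, 438 and 431 CPM in GFP+ cells, against 660.2, 585 and 534 CPM in GFP- cells (log2 fold change -0.38 ± 0.07, edgeR adjusted p = 0.000519). Sox2 had no count in any of the 15 libraries and was not tested. As reads in more than 1 gene of a strand were not counted, this does not show that its RNA was absent.

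Genes shared by all pluripotent cells rose almost throughout. Of 25 listed, 24 were tested, 22 rose and none fell, against 17.4% and 18% of all genes. Their median log2 fold change was 1.73. Nanog, a homeodomain factor of the core network, was at 386, 374 and 437 CPM in GFP+ cells, against 125, 122 and 99.1 CPM in GFP- cells (log2 fold change 1.79 ± 0.16, edgeR adjusted p = 1.87e-05). Dppa4, a chromatin-associated factor of early embryos, was near the floor without GFP: it held 32.8, 41 and 38.3 CPM in GFP+ cells, against 1.02, 0.461 and 1.05 CPM in GFP- cells (5.44 ± 0.19 on the log2 scale). Its partner Dppa2 held 27.9, 31.3 and 30.1 CPM in GFP+ cells, against 3.4, 3.41 and 2.79 CPM in GFP- cells (log2 fold change 3.21 ± 0.23). The RNA-binding protein gene Lin28a, which restrains let-7 miRNAs, stood at 37.1, 31.9 and 36 CPM in GFP+ cells, against 4.08, 2.49 and 1.92 CPM in GFP- cells (3.61 ± 0.21 on the log2 scale). These genes had no GFP- library within the GFP+ range. The Nodal co-receptor gene Tdgf1 was at 382, 409 and 355 CPM in GFP+ cells, against 72.2, 88.3 and 50.8 CPM in GFP- cells (log2 fold change 2.45 ± 0.22). The Nodal antagonist gene Lefty2 was at 51, 70.1 and 70.3 CPM in GFP+ cells, against 11.3, 15.6 and 10.03 CPM in GFP- cells (log2 fold change 2.37 ± 0.17), while Nodal itself, at 45.1, 43.3 and 34.9 CPM in GFP+ cells and 36.7, 32.8 and 29.7 CPM in GFP- cells, was not called (edgeR adjusted p = 0.0809). The other tested member that was not called was L1td1, an RNA-binding protein gene, at 622, 581 and 573 CPM in GFP+ cells and 634, 637 and 534 CPM in GFP- cells.

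Genes of the naive state, the ground state of mouse embryonic stem cells, behaved likewise. Of 22 tested, 18 rose and none fell, against 17.4% and 18% of all genes, with a median log2 fold change of 1.89. Esrrb, an orphan nuclear receptor of the naive network, held 405, 371 and 425 CPM in GFP+ cells, against 83.3, 57.6 and 46.7 CPM in GFP- cells (log2 fold change 2.69 ± 0.25, edgeR adjusted p = 4.61e-05). Zfp42 (Rex1), a late marker of reprogramming, held 19, 16.3 and 19.7 CPM in GFP+ cells, against 1.53, 1.57 and 0.523 CPM in GFP- cells (log2 fold change 3.92 ± 0.25). Dppa3 (Stella), which protects maternal methylation in the zygote, was at 37.3, 31.8 and 31 CPM in GFP+ cells, against 1.78, 1.94 and 0.785 CPM in GFP- cells (4.47 ± 0.25 on the log2 scale). In all 3 genes the GFP- libraries stayed far below the GFP+ ones. Prdm14, which represses de novo methylation genes, was at 30.8, 28.1 and 38.3 CPM in GFP+ cells, against 1.1, 1.75 and 1.66 CPM in GFP- cells (log2 fold change 4.42 ± 0.20). The Krüppel-like factor gene Klf2 was at 55.3, 73.1 and 73.3 CPM in GFP+ cells, against 3.06, 8.76 and 5.76 CPM in GFP- cells (log2 fold change 3.55 ± 0.22). Tfcp2l1, a target of LIF signalling, was well detected in both gates, with 291, 255 and 294 CPM in GFP+ cells, against 90.6, 89.3 and 72.1 CPM in GFP- cells (log2 fold change 1.74 ± 0.10). Members that were not called were Klf4, Stat3, Il6st and Gbx2. Stat3 and Il6st, which carry the LIF signal, were at 146, 189 and 164 CPM and at 224, 354 and 296 CPM in GFP+ cells, against 157, 181 and 204 CPM and 207, 281 and 344 CPM in GFP- cells.

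**Figure D2:**
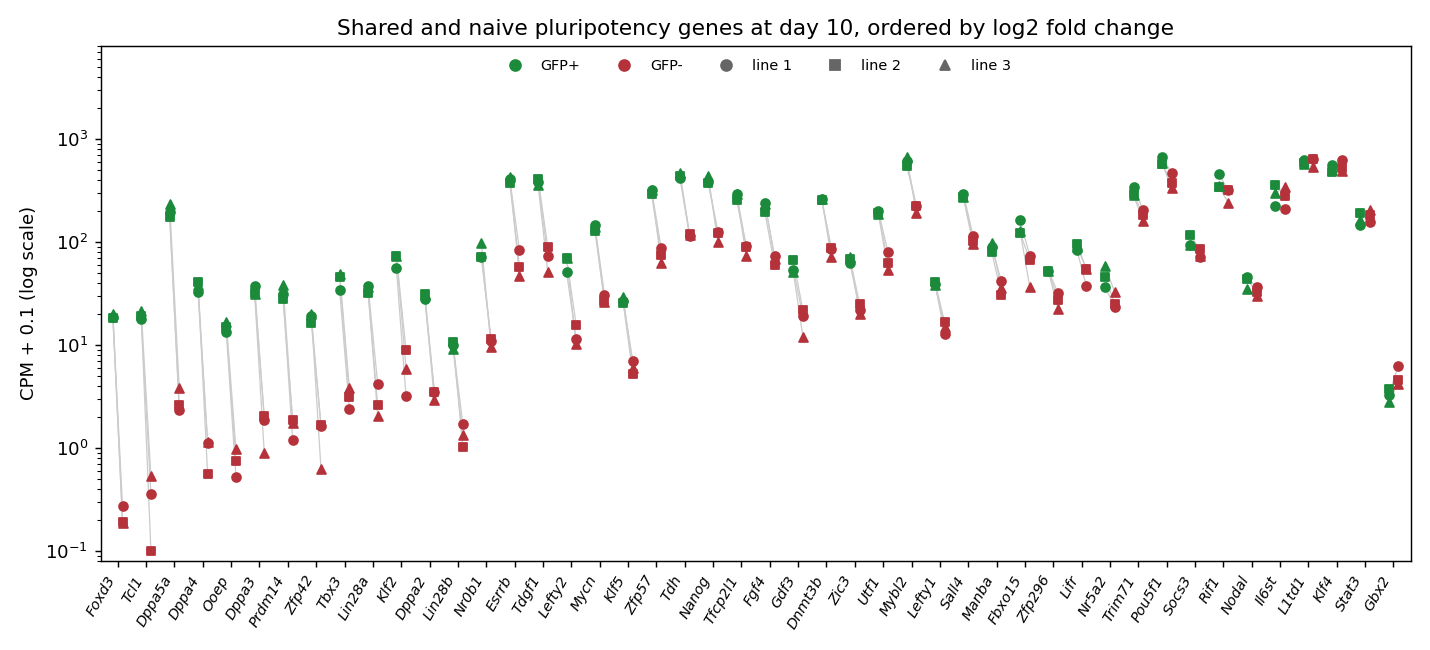
CPM plus 0.1 on a log axis of the tested shared and naive pluripotency genes, with the 3 GFP+ libraries (green) left of the 3 GFP- libraries (red) of each gene, 1 marker shape for each line, and grey lines joining libraries of 1 line. Genes run from the highest log2 fold change, that of Foxd3 at 7.19, to those not called at the right.

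Among genes reaching a mean of 10 CPM, predicted genes left out, those with the highest fold changes included several that were close to silent without GFP. Rbmxl2, a retrogene of the RNA-binding protein gene Rbmx that is known from the testis, held 12.9, 19 and 13.7 CPM in GFP+ cells, against 0.17, 0 and 0.0872 CPM in GFP- cells (log2 fold change 7.24 ± 0.34, edgeR adjusted p = 6.05e-10). Foxd3, a forkhead factor of epiblast and neural crest, was at 18.5, 18 and 20.03 CPM in GFP+ cells, against 0.17, 0.0922 and 0.0872 CPM in GFP- cells (7.19 ± 0.28 on the log2 scale). Tcl1, an activator of the kinase AKT, was at 17.7, 18.9 and 21.1 CPM in GFP+ cells, against 0.255, 0 and 0.436 CPM in GFP- cells (log2 fold change 6.29 ± 0.29). For each of these 3 genes every GFP- library lay at or under its floor of 3 counts or only just above it. Their fold changes are uncertain to that extent, which the standard errors do not show. On log2 levels with a prior count of 2, Rbmxl2 differed by 5.17, 6.64 and 5.63 within lines 1, 2 and 3. Dppa5a, an RNA-binding protein gene of pluripotent cells, held 194, 175 and 236 CPM in GFP+ cells, against 2.21, 2.49 and 3.75 CPM in GFP- cells (log2 fold change 6.15 ± 0.20). Trap1a, an X-linked tumour rejection antigen gene, was at 26.9, 24 and 30.6 CPM in GFP+ cells, against 0.934, 1.01 and 0.698 CPM in GFP- cells (4.92 ± 0.20). Fabp3, a fatty acid binding protein gene, was at 39.3, 25 and 38.6 CPM in GFP+ cells, against 2.21, 0.922 and 1.22 CPM in GFP- cells (4.54 ± 0.25). Ina, which encodes a neuronal intermediate filament, Lrrc34, Gpa33 and Ooep, an oocyte gene, completed the group of 12 together with Dnmt3l and Dppa4, with fold changes of 5.65, 5.80, 5.03 and 4.50 on the log2 scale. All 12 kept their direction and their call under each of the 19 alternative analyses. As retrocopies can share reads with their parent genes, the level of Rbmxl2 is uncertain to that extent.

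Promoters of 3 strongly changed genes and 1 macrophage marker are shown for their number of CG dinucleotides, the sites at which the enzymes encoded by Tet1 and the Dnmt genes act. The windows hold 250 bases before and 50 after the gene start, from RefSeq on GRCm38.p6, and the capitals mark CG. Rbmxl2, on the plus strand of chr7:107209195-107209494, has 29 CG, and Tcl1, on the minus strand of chr12:105222688-105222987, has 11. Tbx21, which fell, lies on the minus strand of chr11:97115282-97115581 and has 21, and the macrophage marker Lyz2, on the minus strand of chr10:117282223-117282522, has 1.
Rbmxl2: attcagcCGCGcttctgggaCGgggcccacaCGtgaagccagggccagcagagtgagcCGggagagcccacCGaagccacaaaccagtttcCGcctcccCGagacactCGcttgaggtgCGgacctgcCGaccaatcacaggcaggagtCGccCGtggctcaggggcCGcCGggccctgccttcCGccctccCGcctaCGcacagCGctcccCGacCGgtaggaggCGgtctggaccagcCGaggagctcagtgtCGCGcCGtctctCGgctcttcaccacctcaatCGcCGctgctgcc
Tcl1: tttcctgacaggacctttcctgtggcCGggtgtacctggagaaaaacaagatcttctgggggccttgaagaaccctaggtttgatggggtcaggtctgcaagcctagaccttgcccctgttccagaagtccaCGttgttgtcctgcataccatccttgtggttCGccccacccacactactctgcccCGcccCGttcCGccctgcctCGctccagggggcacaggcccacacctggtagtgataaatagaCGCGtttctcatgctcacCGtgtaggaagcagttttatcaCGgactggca
Tbx21: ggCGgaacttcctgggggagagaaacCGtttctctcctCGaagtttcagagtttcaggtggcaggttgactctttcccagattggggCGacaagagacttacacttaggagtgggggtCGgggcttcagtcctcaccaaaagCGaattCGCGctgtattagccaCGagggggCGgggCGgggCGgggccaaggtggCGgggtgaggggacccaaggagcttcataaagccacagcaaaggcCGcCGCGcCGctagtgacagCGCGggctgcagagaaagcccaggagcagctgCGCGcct
Lyz2: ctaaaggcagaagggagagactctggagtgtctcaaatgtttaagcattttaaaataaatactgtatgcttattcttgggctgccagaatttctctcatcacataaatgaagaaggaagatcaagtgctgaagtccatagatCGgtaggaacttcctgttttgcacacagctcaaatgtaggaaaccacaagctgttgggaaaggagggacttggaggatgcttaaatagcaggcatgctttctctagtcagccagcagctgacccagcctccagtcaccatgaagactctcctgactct

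Only the first listed promoter of each gene name was used, which gave 27025 of the 32851 promoters listed. A promoter was listed for 10447 of the 14514 genes tested, and these held a median of 21 CG in the 300 bases. The 636 listed promoters of genes that rose by more than 1 on the log2 scale held a median of 10, and the 260 of genes that fell by more than 1 held a median of 19. Among genes called higher at any fold, the 25 listed promoters of shared and naive pluripotency genes had a median of 15 CG, and the 16 of macrophage markers a median of 4. The octamer ATGCNAAT, a motif of POU factors such as Oct4, was present on either strand in 2 of those 25 promoters (8%). Its share was 2.4% in the promoters of genes tested and 3.2% in those of all 27025 gene names. It was present in 3.93% of the 636 promoters of genes that rose by more than 1 and in 5.77% of the 260 of genes that fell by more than 1. The motif GAGGAAGT, of the macrophage factor PU.1, was present in 3 of the 16 macrophage promoters (18.8%), in 2.82% of those of genes tested and in 3.28% of the 27025. Neither letter string occurs in the 4 windows printed above. These counts were given no test.

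The enzymes of DNA methylation moved in both directions. Of 17 listed genes, all tested, 8 rose and 5 fell, against 17.4% and 18% of all genes. Dnmt3l, the cofactor of the de novo methyltransferases, was close to the floor without GFP, with 27.2, 32 and 48.2 CPM in GFP+ cells, against 0.34, 0.277 and 0.0872 CPM in GFP- cells (log2 fold change 7.16 ± 0.23, edgeR adjusted p = 2.81e-12). The de novo methyltransferase gene Dnmt3b rose to 264, 254 and 263 CPM in GFP+ cells, against 85, 88 and 71.1 CPM in GFP- cells (log2 fold change 1.68 ± 0.16). Its paralogue Dnmt3a fell, with 103, 99.8 and 89 CPM in GFP+ cells, against 144, 137 and 164 CPM in GFP- cells (log2 fold change -0.61 ± 0.08). The TET family divided in the same manner. Tet2 held 283, 234 and 284 CPM in GFP+ cells, against 92.3, 103 and 96.1 CPM in GFP- cells (log2 fold change 1.46 ± 0.10, edgeR adjusted p = 2.83e-08). Tet3, the member of oocytes and differentiated cells, held 38.1, 45.4 and 46.7 CPM in GFP+ cells, against 80.7, 96.2 and 96.8 CPM in GFP- cells (log2 fold change -1.07 ± 0.08, edgeR adjusted p = 1.96e-08). None of these 5 genes had overlapping groups. Zfp57, a zinc finger protein that keeps imprints methylated, was at 319, 289.9 and 319 CPM in GFP+ cells, against 86.7, 75.3 and 63 CPM in GFP- cells (log2 fold change 2.05 ± 0.10). Tet1 and Tet3 each overlap another gene model on the same strand, and reads falling in both models were not counted. Under the macrophage marker level as a covariate 5 of the 17 rose and 2 fell, where 478 of all 14514 genes rose and 569 fell. Dnmt3a, at -0.50, was then not called (edgeR adjusted p = 0.178).

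Epithelial genes rose in GFP+ cells for the most part, although E-cadherin did not differ by the test. Of 25 tested, 16 rose and 2 fell, against 17.4% and 18% of all genes, with a median log2 fold change of 0.75. Epcam, an epithelial adhesion molecule, was at 364, 282 and 323 CPM in GFP+ cells, against 209, 178 and 155 CPM in GFP- cells (log2 fold change 0.83 ± 0.18, edgeR adjusted p = 0.00565). Cdh1, which encodes E-cadherin, was at 471, 407 and 468 CPM in GFP+ cells and 438, 422 and 369.6 CPM in GFP- cells, and the groups overlapped (log2 fold change 0.13 ± 0.12, edgeR adjusted p = 0.475). The tight junction gene Cldn6 was at 105, 60.6 and 74.8 CPM in GFP+ cells, against 29.99, 13.5 and 15.8 CPM in GFP- cells (log2 fold change 2.05 ± 0.18). The desmosomal cadherin gene Dsg2 was at 114, 85.7 and 91.9 CPM in GFP+ cells, against 19.6, 19.7 and 12.5 CPM in GFP- cells (log2 fold change 2.49 ± 0.18). Its desmosomal partner Dsp, which encodes desmoplakin, moved against the list and fell to 87.3, 55.6 and 75.3 CPM in GFP+ cells, against 262, 245 and 209.99 CPM in GFP- cells (log2 fold change -1.73 ± 0.11). The groups of Epcam, Cldn6, Dsg2 and Dsp did not overlap. The keratin gene Krt19 was the other fall, at 8.14, 8.76 and 6.93 CPM in GFP+ cells, against 23.6, 21 and 25.5 CPM in GFP- cells (log2 fold change -1.55 ± 0.15). With the macrophage marker level as a covariate 6 of the 25 rose and 2 fell, where 478 of all 14514 genes rose and 569 fell. The list median was then 1.23, and Epcam, at 1.30, was not called (edgeR adjusted p = 0.13). The covariate lies close to the contrast, and the cause of the lost calls was not tested.

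Genes known from germ cells rose from very low levels. Of 26 listed, 20 were tested, 13 rose and 2 fell, against 17.4% and 18% of all genes. Their median log2 fold change was 2.06. It was 1.69 with the 5 tested genes without a count in GFP- cells set to the bound that 3 counts per library allow. Rpl10l, a ribosomal protein retrogene of the testis, was at 0.751, 2.19 and 3.61 CPM in GFP+ cells and had no count in GFP- cells, at least 8.27-fold higher. Dazl, an RNA-binding protein gene of germ cells, was at 1, 0.609 and 1.2 CPM in GFP+ cells and had none in GFP- cells, at least 3.55-fold higher. Tdrd12, of the piRNA pathway, was at 6.39, 4.14 and 8.73 CPM in GFP+ cells, against 0.34, 0.0922 and 0.436 CPM in GFP- cells (log2 fold change 4.39 ± 0.39). Hormad1, a protein of the meiotic chromosome axis, was at 1.38, 1.58 and 1.96 CPM in GFP+ cells, against 0.17, 0 and 0.0872 CPM in GFP- cells (log2 fold change 4.03 ± 0.65). The 2 falls were the cohesin genes Smc1a, at 254, 237 and 242 CPM in GFP+ cells against 284, 294 and 279.8 CPM in GFP- cells, and Rec8. Of the 25 germline genes in the table, 11 stayed under 1 CPM in all 6 libraries.

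Members of the Polycomb and one-carbon lists rose more often than the 17.4% of all genes. In Polycomb repressive complex 2, which methylates lysine 27 of histone H3, 5 of 11 tested members rose and 3 fell. Mtf2, an accessory subunit, held 279, 237 and 248 CPM in GFP+ cells, against 134, 130.2 and 115 CPM in GFP- cells (log2 fold change 1.01 ± 0.06). The catalytic subunit gene Ezh2 was at 195, 168 and 189 CPM in GFP+ cells, against 136, 139 and 133 CPM in GFP- cells (0.43 ± 0.07 on the log2 scale), and the accessory subunit gene Phf19 fell by 0.45 on the log2 scale. Under the macrophage covariate 3 of the 11 rose and none fell, where 478 of all 14514 genes rose and 569 fell. Ezh2, at 0.33, and Phf19, at -0.60, were then not called, with adjusted p of 0.344 and 0.173 in edgeR. Among 17 genes of threonine and one-carbon metabolism, which mouse embryonic stem cells rely on, 7 rose and 1 fell, or 3 and none under the covariate. Tdh, the threonine dehydrogenase gene, was at 421, 437 and 471 CPM in GFP+ cells, against 114, 119.7 and 117 CPM in GFP- cells (log2 fold change 1.91 ± 0.29). Amt, of the glycine cleavage system, was at 65.6, 57.7 and 75.6 CPM in GFP+ cells, against 13.6, 12 and 10.9 CPM in GFP- cells (log2 fold change 2.44 ± 0.15). Of 22 cell division genes 5 rose and 2 fell, with a median of 0.05, shares near or below the 17.4% and 18% of all genes, and none was called with the macrophage covariate. Bub1, a spindle checkpoint kinase gene, rose by 0.31 ± 0.07 on the log2 scale, and Mki67, the proliferation marker, fell to 750.5, 600.4 and 628 CPM in GFP+ cells, against 968, 985 and 867 CPM in GFP- cells (log2 fold change -0.51 ± 0.06). Of 18 glycolytic genes 4 rose and 2 fell, and of 24 nuclear-encoded genes of the respiratory chain 2 rose and 3 fell, again near or below the shares of all genes.

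**Figure D3:**
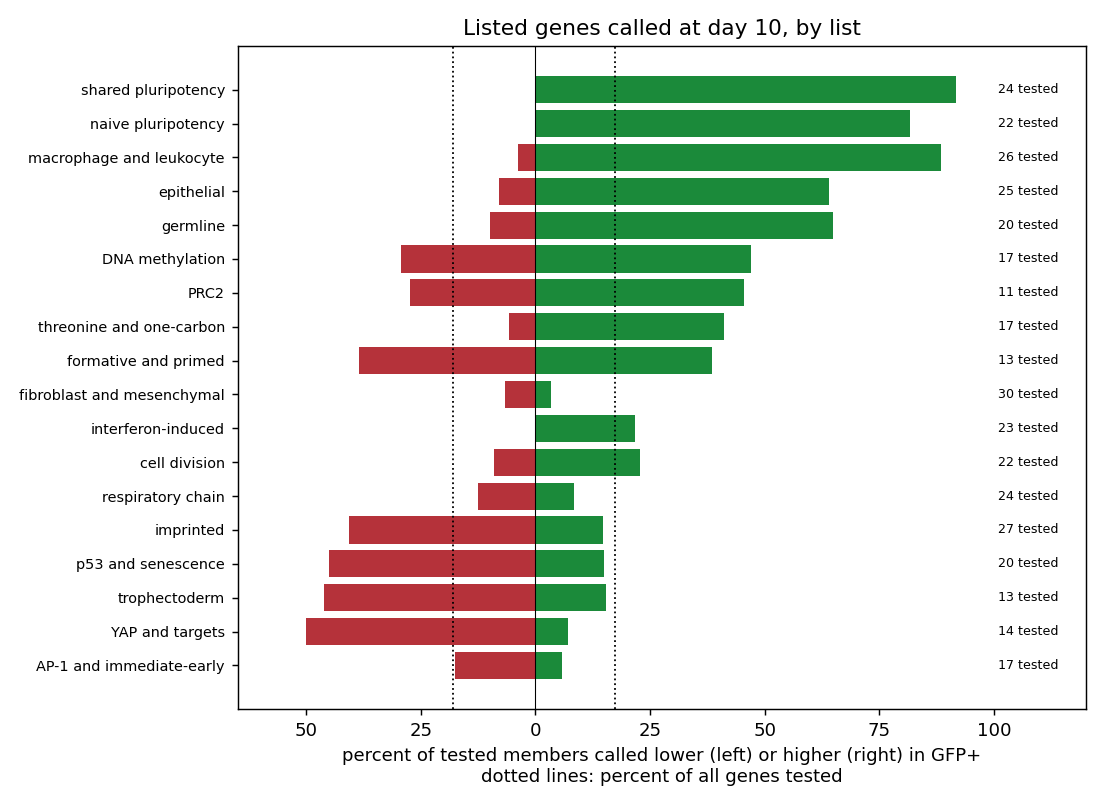
Percent of the tested members of 18 gene lists that were called higher (green, to the right) or lower (red, to the left) in GFP+ than in GFP- cells, with the number tested at the right. Dotted lines mark the shares over all genes tested, 17.4% higher and 18% lower, which, among others, the pluripotency and macrophage lists exceed on the right and the trophectoderm, YAP and p53 lists on the left.

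Some called genes were left out here as predicted, as overlapping between groups, or as under a mean of 10 CPM in both. Among the rest, the most negative fold changes in GFP+ cells included those of regulators of other lineages. Dcx, which encodes the microtubule protein doublecortin of young neurons, was at 0.501, 0.852 and 1.2 CPM in GFP+ cells, against 9.35, 13.1 and 14.7 CPM in GFP- cells (log2 fold change -3.86 ± 0.35, edgeR adjusted p = 3.09e-07). Tbx21, the T-box factor known from T helper cells, was at 1.38, 0.852 and 1.51 CPM in GFP+ cells, against 19.4, 15 and 15 CPM in GFP- cells (log2 fold change -3.73 ± 0.27). Hhip, an inhibitor of hedgehog ligands, was at 0.626, 1.1 and 2.11 CPM in GFP+ cells, against 7.65, 14.3 and 10.5 CPM in GFP- cells (log2 fold change -3.11 ± 0.35). In none of these did a GFP+ library reach the GFP- range. The imprinted gene Rtl1, at 1.13, 2.8 and 2.86 CPM in GFP+ cells and 13.3, 23.1 and 20.6 CPM in GFP- cells, fell by 3.11 on the log2 scale, and the homeobox gene Irx5, at 2.63, 2.92 and 1.66 CPM in GFP+ cells and 19.8, 16.1 and 19.6 CPM in GFP- cells, fell by 2.91. The remaining 7 of the 12 largest falls under these limits were Sox21, Dmkn, Lgals7, Sez6, Chst3, Unc5d and Lfng, which fell by 2.26 to 2.46 on the log2 scale. Lfng, which modifies Notch receptors, held 12.9, 16.3 and 12.8 CPM in GFP+ cells, against 67.8, 74.2 and 60.02 CPM in GFP- cells. All 12 falls kept their direction under the 19 alternatives, and all but Dmkn and Sez6 kept their call. Those 2 were no longer called with the macrophage marker level as a covariate, at -1.24 for Dmkn and -1.31 for Sez6.

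Trophectoderm genes fell more often than they rose, 6 against 2 of 13 tested, with a median log2 fold change of -0.35. Over all genes 18% fell and 17.4% rose, so the rises were near that share. Tfap2a, an AP-2 factor, was at 16.2, 15.6 and 13.6 CPM in GFP+ cells, against 70.6, 71.8 and 56.3 CPM in GFP- cells (log2 fold change -2.13 ± 0.11). Peg10, a placental gene of retrotransposon origin and itself imprinted, was at 88.5, 75 and 84.3 CPM in GFP+ cells, against 288, 348 and 284 CPM in GFP- cells (log2 fold change -1.90 ± 0.19). Each GFP+ library lay below every GFP- library for both genes. Moving the other way, the related factor gene Tfap2c, which is also expressed in naive cells, was at 133, 110.2 and 108 CPM in GFP+ cells, against 56.1, 62.7 and 54.1 CPM in GFP- cells (log2 fold change 1.02 ± 0.12). Of 27 imprinted genes tested, 11 fell and 4 rose, again with the rises near the 17.4% of all genes. Grb10, an inhibitor of growth factor receptors, was at 788, 778 and 759 CPM in GFP+ cells, against 1275, 1225 and 1252 CPM in GFP- cells (log2 fold change -0.69 ± 0.05). Rian, a noncoding RNA of the Dlk1-Dio3 locus, was at 227, 206 and 174 CPM in GFP+ cells, against 295, 314 and 288 CPM in GFP- cells (log2 fold change -0.57 ± 0.08), though many small RNA genes lie within it on the same strand. The 2 ranges were apart for Grb10 and for Rian. Phlda2, a placental growth regulator, rose to 12.6, 7.06 and 9.94 CPM in GFP+ cells, against 1.44, 1.29 and 1.31 CPM in GFP- cells (log2 fold change 2.85 ± 0.20).

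Neural genes split, with 5 of 10 tested higher and 4 lower, against 17.4% and 18% of all genes. Stmn2, a microtubule regulator, was at 155, 140.1 and 146 CPM in GFP+ cells, against 31.2, 38.1 and 32.7 CPM in GFP- cells (log2 fold change 2.12 ± 0.09). Nes, the intermediate filament gene of neural progenitors, was at 66.1, 54.4 and 50.9 CPM in GFP+ cells, against 163, 174 and 139 CPM in GFP- cells (log2 fold change -1.47 ± 0.08). Neither gene had overlapping groups. Of 8 endothelial genes tested 2 were higher and 2 lower, not far from the 17.4% and 18% of all genes. Pecam1, an adhesion molecule also found on pluripotent cells, was at 27.2, 19.11 and 33.9 CPM in GFP+ cells, against 2.97, 2.77 and 3.14 CPM in GFP- cells (log2 fold change 3.15 ± 0.16). Tek, the angiopoietin receptor gene, was at 48.7, 54.6 and 58.1 CPM in GFP+ cells, against 137, 133 and 133 CPM in GFP- cells (log2 fold change -1.32 ± 0.10). Here too the gates did not overlap. The formative and primed genes of the later epiblast gave 5 higher and 5 lower of 13 tested, against 17.4% and 18% of all genes. None of the 13 was called with the macrophage marker level as a covariate. Among them Otx2, an epiblast factor, was at 1.75, 1.7 and 4.82 CPM in GFP+ cells, against 0.17, 0.0922 and 0.0872 CPM in GFP- cells (log2 fold change 4.37 ± 0.53, and 2.33 with the covariate, edgeR adjusted p = 0.458). Of 12 erythroid markers none passed the filter on low counts, and their summed level was 1.1 to 2.38 CPM in GFP+ cells and 0.76 to 0.92 CPM in GFP- cells.

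Genes of the p53 and YAP pathways fell more often than they rose. Of 20 genes of p53 and senescence, 9 fell and 3 rose, against 18% and 17.4% of all genes. Their median log2 fold change was -0.21. Ccng1, a p53 target, was at 437, 504 and 444 CPM in GFP+ cells, against 691, 744 and 694 CPM in GFP- cells (log2 fold change -0.62 ± 0.08). The senescence locus Cdkn2a was at 63.9, 61.8 and 55.4 CPM in GFP+ cells, against 92.7, 77.2 and 76.6 CPM in GFP- cells (log2 fold change -0.44 ± 0.07), while Trp53 itself was among the rises. Of 14 genes of the YAP pathway, 7 fell and 1 rose, against the same shares of all genes. Axl, a receptor kinase gene and YAP target, was at 81.6, 140.1 and 120.2 CPM in GFP+ cells, against 192, 210.1 and 251 CPM in GFP- cells (log2 fold change -0.95 ± 0.16), and Wwtr1, which encodes TAZ, fell by 0.70. Of 19 genes of the TGF-beta response 3 rose and 4 fell, near the 17.4% and 18% of all genes. The median of this response was 0.46, but -0.63 with the macrophage covariate. Smad7, its inhibitory feedback gene, was at 54.1, 80.2 and 71.1 CPM in GFP+ cells, against 14.4, 15.8 and 19.2 CPM in GFP- cells (log2 fold change 2.05 ± 0.10). For the 4 genes whose values are given here the groups did not overlap. The AP-1 and immediate-early genes gave 1 rise and 3 falls of 17, no more than the shares of all genes.

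Few fibroblast and mesenchymal genes passed the test at day 10. Of 30 tested, 1 rose and 2 fell, fewer in either direction than the 17.4% and 18% of all genes, although the median log2 fold change was 0.45. Col1a1, the main fibrillar collagen gene, was at 1075, 2807 and 1851 CPM in GFP+ cells and 623, 1245 and 1836 CPM in GFP- cells with overlap between the groups (log2 fold change 0.65 ± 0.26, edgeR adjusted p = 0.0912). The summed level of the 30 genes was 9000, 19111 and 14797 CPM in GFP+ cells and 6391, 10746 and 14663 CPM in GFP- cells. The difference varied by line: the median within a line was 0.54 in line 1, 0.77 in line 2 and -0.09 in line 3. Thy1, a fibroblast surface marker, was at 57.5, 114 and 113 CPM in GFP+ cells and 66, 99.6 and 173 CPM in GFP- cells (edgeR adjusted p = 0.484). Vim, the intermediate filament gene of mesenchyme, fell by the test although the groups overlapped, with 424, 907 and 767 CPM in GFP+ cells, against 852, 1061 and 1409 CPM in GFP- cells (log2 fold change -0.68 ± 0.21). The mesodermal homeobox gene Meox2 fell to 7.51, 16.7 and 12.8 CPM in GFP+ cells, against 20.7, 25.1 and 29.7 CPM in GFP- cells (log2 fold change -1.04 ± 0.15). Fn1, which encodes fibronectin, was the rise, at 2555, 2446 and 2589 CPM in GFP+ cells, against 1719, 1883 and 1952 CPM in GFP- cells (log2 fold change 0.45 ± 0.10). The median of the 30 genes was 0.04 without the GFP+ libraries of lines 2 and 3. In the fit with the macrophage marker level as a covariate 478 of all 14514 genes rose and 569 fell. The median of the 30 was then -0.52, with no rise and 2 falls. Meox2, at -1.69, was 1 of those falls, while Vim, at -1.38, was not called with the covariate (edgeR adjusted p = 0.149), and Vim kept its call in 11 of the 19 alternatives.

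Interferon-induced genes showed 5 rises and no fall in 23 tested, a share of rises close to the 17.4% of all genes, with a median log2 fold change of 0.40. Stat2, a transducer of interferon signals, was at 49.8, 63.4 and 57.8 CPM in GFP+ cells, against 22.9, 31.1 and 41.6 CPM in GFP- cells (log2 fold change 0.85 ± 0.15). Isg15, a ubiquitin-like effector, was at 10.3, 24.1 and 20.03 CPM in GFP+ cells and 5.69, 10.2 and 17.4 CPM in GFP- cells, with overlap between the groups (log2 fold change 0.72 ± 0.21, edgeR adjusted p = 0.0188). As with the fibroblast list, the median difference varied by line, at 0.52, 0.72 and 0.03 in lines 1, 2 and 3. With the macrophage marker level as a covariate none of the 23 was called and their median was -0.38. In that fit 478 of all 14514 genes rose and 569 fell. Of 20 lysosomal genes 7 rose and none fell, against 17.4% and 18% of all genes. Hexa, a lysosomal hexosaminidase gene, was at 134, 128 and 130.4 CPM in GFP+ cells, against 60.8, 59.2 and 71.5 CPM in GFP- cells (log2 fold change 1.04 ± 0.08). With the covariate 1 of the 20 was called, Hexa, at 1.35 (edgeR adjusted p = 0.000482). Ctsa, at 0.38, and Ctsl, at 0.70, were not called with it, with adjusted p of 0.211 and 0.0891 in edgeR.

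Most macrophage and leukocyte markers were higher in GFP+ cells, and some lay at or under the floor in GFP- cells. Of 30 markers, 26 were tested, 23 rose and 1 fell, against 17.4% and 18% of all genes. Their median log2 fold change was 2.94. Ptprc, which encodes the pan-leukocyte antigen CD45, was at 1.5, 4.75 and 5.87 CPM in GFP+ cells, against 0.255, 0.553 and 0.611 CPM in GFP- cells (log2 fold change 3.02 ± 0.47, edgeR adjusted p = 7.06e-05). Csf1r, the receptor that macrophages need to survive, was at 3.88, 10.7 and 11.7 CPM in GFP+ cells, against 0.51, 1.48 and 0.785 CPM in GFP- cells (log2 fold change 3.22 ± 0.33, edgeR adjusted p = 8.1e-07). Adgre1, the F4/80 antigen of mature macrophages, was at 7.14, 24.2 and 26.8 CPM in GFP+ cells, against 0.255, 3.97 and 2.97 CPM in GFP- cells (log2 fold change 3.02 ± 0.58, edgeR adjusted p = 0.00266). For these defining genes line 1 was the lowest of the GFP+ libraries and the groups did not overlap. The lysozyme gene Lyz2 was at 30.05, 101.02 and 109 CPM in GFP+ cells, against 3.4, 15.9 and 9.42 CPM in GFP- cells (log2 fold change 3.07 ± 0.57, edgeR adjusted p = 0.00311). Spi1, which encodes the myeloid factor PU.1, was at 1.63, 3.89 and 5.12 CPM in GFP+ cells, against 0.085, 0.369 and 0.174 CPM in GFP- cells (log2 fold change 3.99 ± 0.55). The complement gene C1qa was at 5.01, 11.7 and 11.4 CPM in GFP+ cells, against 0.255, 1.48 and 0.698 CPM in GFP- cells (log2 fold change 3.53 ± 0.43). Cd74 and Ly86 were under 1 CPM in all 6 libraries, and Trem2 had no count in the GFP- library of line 1. In that library Ptprc, Adgre1, C1qa and Spi1 lay at or under the floor of 3 counts (0.258 CPM), and Csf1r and Lyz2 above it. Fold changes of the former are uncertain to that extent.

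**Figure D4:**
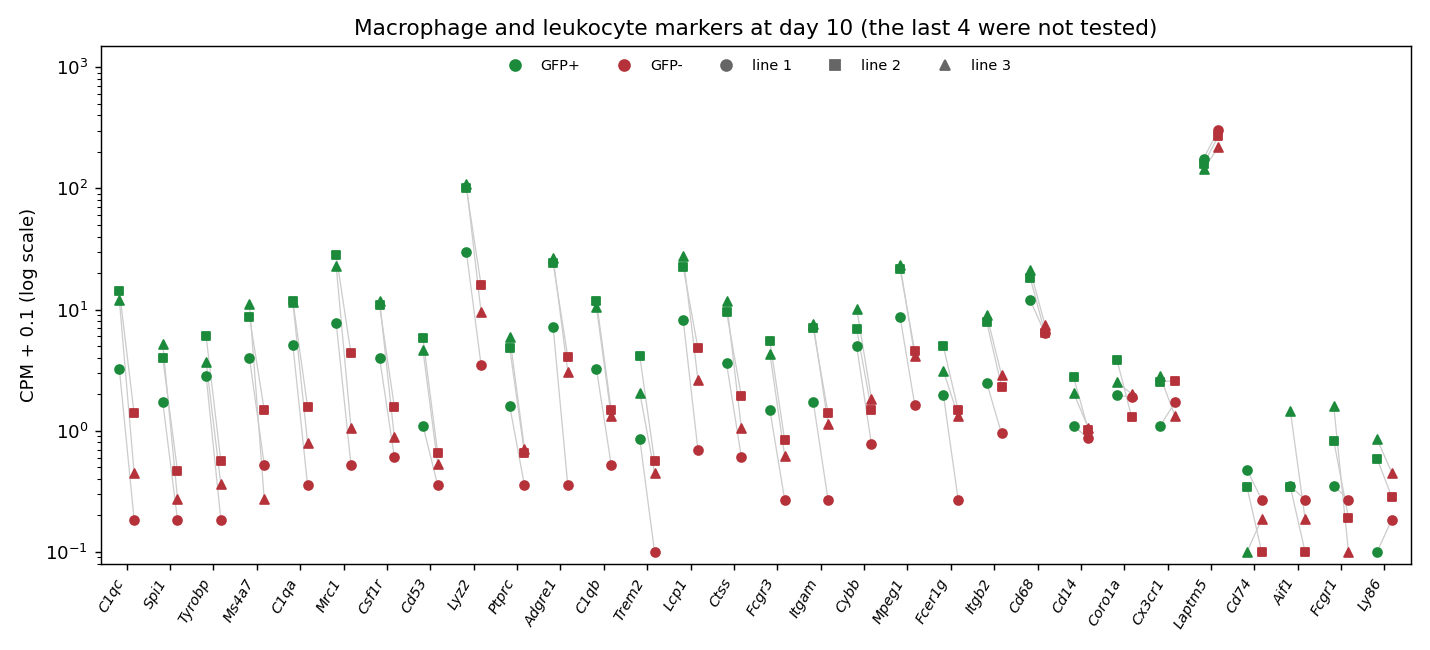
CPM plus 0.1 on a log axis of the 30 macrophage and leukocyte markers, with the 3 GFP+ libraries (green) left of the 3 GFP- libraries (red), marker shapes for the lines and grey lines joining libraries of 1 line. Markers run from the highest log2 fold change to Laptm5 at -0.71, the tested marker that fell, and the 4 that were not tested stand at the right.

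Laptm5, a lysosomal membrane protein gene of leukocytes, went against the rest of the markers, with 176, 159.7 and 145 CPM in GFP+ cells, against 303, 269.7 and 218 CPM in GFP- cells (log2 fold change -0.71 ± 0.13). It made up most of the summed level of the 30 markers in GFP- cells. That level was 297, 508 and 509 CPM in GFP+ cells and 325, 332 and 263 CPM in GFP- cells. The sum was higher in GFP+ cells in 2 of 3 lines, by 131 ± 142 CPM on average (SD over lines, exact sign-flip test, two-sided, p = 0.5). Without Laptm5, a choice made after seeing the data, the sum was 121, 349 and 364 CPM in GFP+ cells, against 22.2, 62.7 and 45.3 CPM in GFP- cells. It was then higher in 3 of 3 lines, by 234 ± 119 CPM (exact two-sided p = 0.25, the smallest that 3 pairs allow). The same sum was 49.7 to 103 CPM at day 8, 88.4 to 162 CPM in day 12 GFP+ cells and 69.5 to 91.7 CPM in day 12 GFP- cells, so the day 10 GFP+ libraries of lines 2 and 3 stood highest among the 15. The median difference of the tested markers within a line was 2.41, 2.52 and 2.90 on the log2 scale in lines 1, 2 and 3.

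The other results were read with these values in view. Leaving out the GFP+ libraries of lines 2 and 3, which hold the most of these markers (an alternative added after seeing the data), gave 2877 called genes, with 1412 higher and 1465 lower. It leaves 1 GFP+ library, whose spread is then assumed to be that of the other groups. Of the shared pluripotency genes 22 of 24 still rose and of the naive genes 16 of 22, with medians of 1.68 and 1.87. With the mean log2 level of the 26 tested markers as a covariate 1047 genes were called, 478 higher and 569 lower. Here 13 of 24 shared and 14 of 22 naive genes rose, with medians of 2.00 and 1.95, and the median of the macrophage markers themselves was 0.0039. As the covariate is built from these same markers, this last median follows from the fit and is no separate result. The fold change of Esrrb was 3.29 with the covariate (edgeR adjusted p = 0.0386) and that of Pou5f1 was 0.78 (edgeR adjusted p = 0.0378), while Nanog, at 1.55, was no longer called (edgeR adjusted p = 0.0653). Tbx21, at -4.14, and Tet3, at -1.42, remained called. Called lower with the covariate were 2 of 13 trophectoderm genes, 2 of 14 YAP pathway genes and 2 of 20 p53 and senescence genes. Over all 14514 genes tested the same fit called 569 lower. The medians of the trophectoderm, YAP and p53 lists were -0.62, -0.18 and -0.23. Of the 20 germline genes tested 1 rose with the covariate, and their median was 1.93.

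At day 12 the same gates of the same lines, in libraries of their own, differed in more genes. Of the 14514 genes 10498 were called (72.3%), 36.2% of those tested higher and 36.1% lower in GFP+ cells. The title of the day 12 GFP- library of line 2 lacks the mCherry mark that the other totalx2 titles carry. That library was grouped by its source name. Of the 2524 genes that rose at day 10, 2103 (83.3%) also rose at day 12, and they were 40.0% of the 5258 day 12 rises. Of the 2616 falls, 2110 (80.7%) also fell at day 12, which was 40.3% of the 5240 day 12 falls. The test of the difference between the day 12 and day 10 effects called 6507 genes (44.8%), and 3752 without line 2. Among the day 10 rises the effect was larger at day 12 for 885 genes and smaller or opposite for 306, and among the falls larger for 965 and smaller or opposite for 327.

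Over all genes tested this difference was called higher for 22% and lower for 22.9%. Of the 24 shared pluripotency genes 12 had a higher GFP effect at day 12 and none a lower one, and of the 22 naive genes 8 had a higher and 4 a lower one. Esrrb averaged 684 ± 29.9 CPM in GFP+ cells and 86.9 ± 14.7 CPM in GFP- cells at day 12 (SD, n = 3 each), and the difference between its day 12 and day 10 effects was 0.29 ± 0.34 (edgeR adjusted p = 0.523). Nanog averaged 554 ± 22.2 CPM in GFP+ cells and 93 ± 19.6 CPM in GFP- cells at day 12, and the effect was larger than at day 10 by 0.78 ± 0.23 (edgeR adjusted p = 0.0187). For Pou5f1 the difference between the effects was 0.00 ± 0.12 (edgeR adjusted p = 0.993). Col1a1, which was not called at day 10, averaged 547 ± 72.9 CPM in GFP+ cells and 2572 ± 529.8 CPM in GFP- cells at day 12, a difference between the effects of -2.87 ± 0.38 (edgeR adjusted p = 0.000452). Of the 30 fibroblast genes, 29 had a lower GFP effect at day 12 than at day 10 by this test, and of the 23 interferon-induced genes 21 had. For the macrophage markers 17 of 26 had a lower and none a higher effect at day 12. Lyz2 averaged 27.6 ± 11.2 CPM in GFP+ cells and 20.3 ± 4.09 CPM in GFP- cells at day 12. Of the 22 cell division genes 20 had a higher effect at day 12, and of the 17 threonine and one-carbon genes 15 had.

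**Figure D5:**
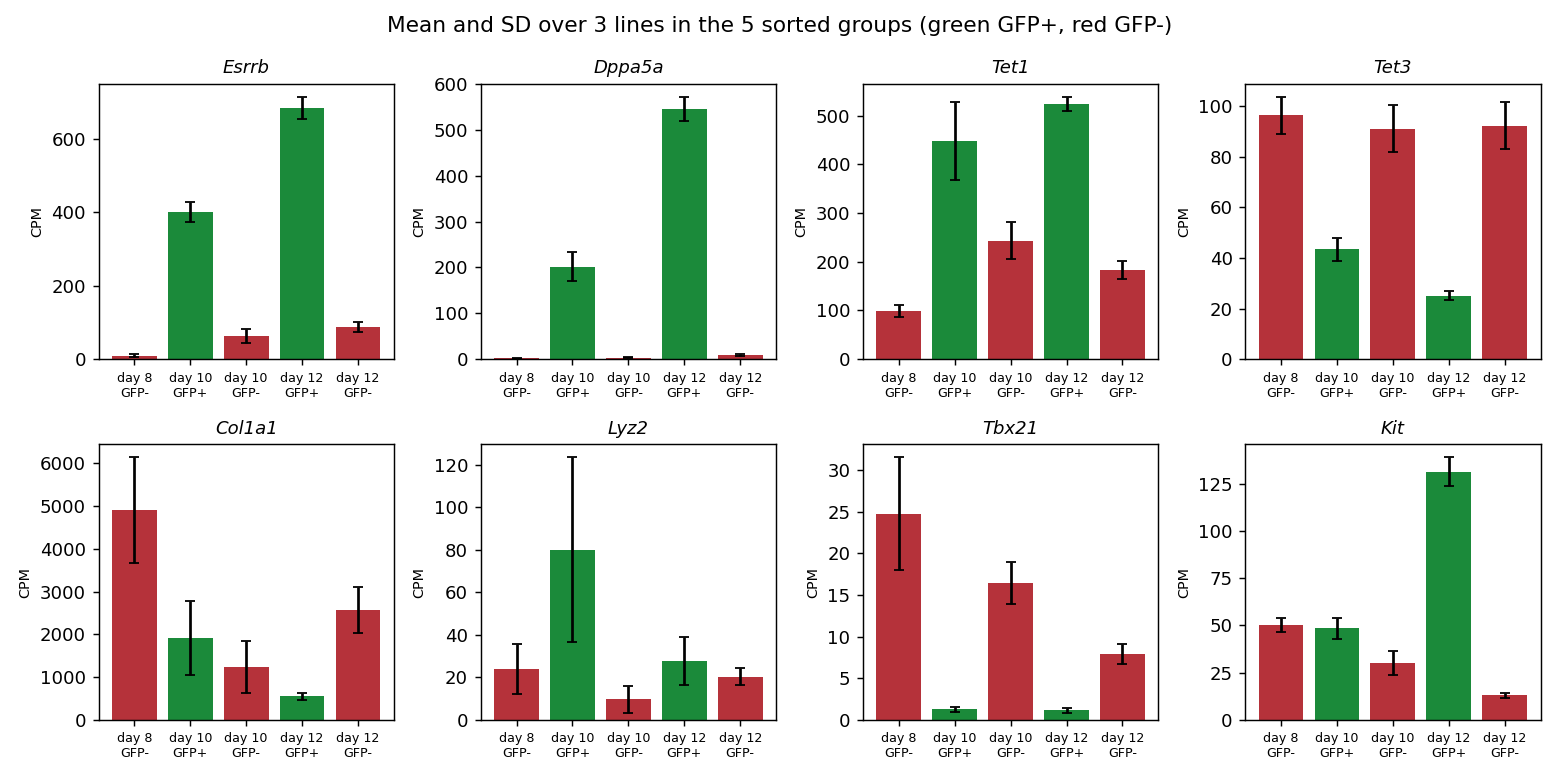
Mean CPM (bars) and SD (error bars) over 3 lines of 8 genes in the 5 sorted totalx2 groups, in order of day, with GFP+ cells (green) left of GFP- cells (red) at days 10 and 12. Esrrb, Dppa5a and Tet1 are high with GFP on both days, Tet3 and Tbx21 are low with GFP, and Col1a1, Lyz2 and Kit change their GFP difference between the days.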

How the data were processed

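RNA was measured by stranded poly(A) RNA-seq. Raw counts per gene were deposited by the authors, made with featureCounts 1.5.3 on the reverse strand over whole gene bodies, introns included, grouped by gene name in the gencode annotation of GRCm38.p5, per the file headers. Reads in more than 1 gene of a strand were not counted. HISAT2 2.1.0, mm10 and DESeq2 1.18.1 are named in the submitters' processing notes.

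The 15 totalx2 libraries were fitted together in edgeR 4.0.16 (R 4.3.3): filterByExpr, TMM, group plus line, robust quasi-likelihood F test and Benjamini-Hochberg adjustment over 14514 genes at 0.05. Standard errors are the absolute log2 fold change over the square root of F. Where 1 group lies near the floor, they can understate the uncertainty of the fold change. CPM were TMM-scaled, and log2 levels used a prior count of 2. Line was blocked because the labels tie both gates to 1 line. Deviations from group means correlated in all 30 same-line pairs (0.14 to 0.631), and the day 10 gates of different lines correlated at -0.538 to 0.277. Covariate: mean log2 CPM of the tested macrophage markers. DESeq2 1.42.0 served as an alternative test. The fit was tested on simulated data. Promoters came from a RefSeq table on GRCm38.p6. A floor of 3 counts covers counting error only.

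The comparison and the 30 gene lists were chosen with earlier results of these data known. By rule, the genes named were the 12 largest rises and falls among called genes, predicted genes left out. These had at least 10 CPM in the higher group, no overlap and the same direction in all lines. The rule added up to 4 called members of each list by p and the 1 against its direction. It also took a set of reporter, methylation, pluripotency, mesenchymal and macrophage genes, and the 5 most positive and 5 most negative differences between days. Alpl, Dazl, Dppa2, Hormad1, Il6st, Klf2, Klf4, Krt19, L1td1, Lefty2, Lin28a, Nodal, Spi1, Stat3, Tdgf1, Tfap2c and Tfcp2l1 are list members outside that rule, named after their values were seen. Of the other libraries of the series, 6 entered 1 alternative.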

Additional observations from a re-analysis of the deposited data

Results flagged for a closer look

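The GFP effect at day 12 differed from that at day 10 for 6507 genes by the edgeR test of the difference itself, and the values below are the day 12 minus the day 10 log2 effect. Among genes that averaged 10 CPM or more in any of the 4 groups, predicted genes left out, the most negative were Zcchc5 (-3.76), the collagenase gene Mmp13 (-3.7), the scavenger receptor gene Cd36 (-3.3), the complement gene C3 (-3.17) and Cyp2d22 (-3.15). Mmp13 averaged 64.05 ± 24.97 CPM in day 10 GFP+ cells and 16.8 ± 6.24 CPM in day 10 GFP- cells, but 34 ± 1.87 CPM in day 12 GFP+ cells and 117 ± 24.6 CPM in day 12 GFP- cells (SD, n = 3 each). The most positive by the same minimum were Vax2 (2.62), Sept1 (2.63), the receptor kinase gene Kit (2.66), the germ cell gene Tex14 (2.68) and Mcf2 (3.21). Kit averaged 131 ± 7.59 CPM in GFP+ cells and 13 ± 1.41 CPM in GFP- cells at day 12.

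Among the genes of methylation, the difference was 0.65 for Tet1, 0.49 for Tet2, -0.81 for Tet3, -0.64 for Dnmt3a, 0.87 for Dnmt3b and -1.37 for Dnmt3l. Among pluripotency and epithelial genes it was 0.78 for Nanog, 1.19 for Zfp42 and 0.47 for Cdh1. The mesenchymal genes Col1a1 and Thy1 stood at -2.87 and -2.1. Of the macrophage and leukocyte markers 17 had a lower effect at day 12, and the defining ones differed by -2.15 (Ptprc), -2.55 (Csf1r), -2.62 (Adgre1) and -2.71 (Lyz2). The macrophage marker level moves with the day 10 gates, and its part in these differences was not tested gene by gene.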

How the results depend on the processing

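The calls were most sensitive to the macrophage marker level. With it as a covariate the day 10 comparison called 1047 genes (478 higher, 569 lower) in place of 5140 (2524 and 2616), the difference between days called 1980 (953 higher, 1027 lower) in place of 6507, the calls among the 157 named genes numbered 66 in place of 154, and those among list members 75 in place of 241. The covariate lies close to the contrast, and the cause of the loss was not tested. The sign of the day 10 log2 fold change turned with the covariate for Adgre1 (-0.84), Cd36 (-1.05), Cd68 (-0.024), Cyp2d22 (-0.42), Ifit3 (-0.11), Isg15 (-0.18), Itgam (-1.13), Jund (0.0037), Lyz2 (-0.56), Xaf1 (-0.033) and mt-Nd1 (-0.045). Of these, Adgre1, Cd68, Itgam and Lyz2 are markers that make up the covariate, so their turn is no separate result. Without the 2 GFP+ libraries highest in these markers, chosen after seeing the data, 2877 genes were called at day 10 (1412 higher, 1465 lower) and 3292 for the difference (1606 higher, 1686 lower), with fewer samples.

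All 21 libraries of the second batch, without the block, gave 3398 calls at day 10 (1423 lower) and 4143 for the difference (1603 higher). The 15 libraries with no replicate block gave 4366 calls (2145 higher, 2221 lower) at day 10 and 5585 for the difference, so the pairing by line changed no count by over 1.5 times. Leaving out 1 library or 1 line gave 3625 to 4608 calls at day 10, and 3752 to 6795 (1820 to 3361 higher, 1932 to 3434 lower) for the difference, lowest without line 2. Only the 6 day 10 libraries gave 4823, RLE factors 5098, library totals 5085, no filter 4854, a minimum of 1 CPM 5132 and DESeq2 4521. Depth of 6540256 to 11633790 counts limits genes below about 1 CPM, among them 11 of 25 germline genes.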

Other observations

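Called genes were not spread alike over the chromosomes, a description given no test. On chromosome 17, 153 of 710 genes tested rose (21.55%) and 85 fell (11.97%), and on chromosome 7, 246 of 1161 rose (21.19%) and 165 fell (14.21%), against 17.4% and 18% over all genes. Of 10 tested genes of chromosome Y, 4 rose and none fell. On chromosome X 78 of 527 rose (14.8%) and 90 fell (17.08%).

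Surface proteins used to sort reprogramming cells gave 4 rises and 5 falls of 15 tested, against 17.4% and 18% of all genes. Cd200 held 0.501, 1.34 and 3.92 CPM in GFP+ cells, against 3.4, 4.43 and 9.16 CPM in GFP- cells (log2 fold change -1.64 ± 0.33, edgeR adjusted p = 0.000897), with overlap between line 3 of the GFP+ and line 1 of the GFP- cells. Cd24a held 87.4, 63.3 and 64.2 CPM in GFP+ cells, against 155, 168 and 135 CPM in GFP- cells (log2 fold change -1.09 ± 0.12, edgeR adjusted p = 6.97e-06). Alpl, the alkaline phosphatase gene of stem cells, was at 249.7, 204 and 235 CPM in GFP+ cells, against 143, 137 and 97.5 CPM in GFP- cells (log2 fold change 0.88 ± 0.10, edgeR adjusted p = 1.4e-05). Gadd45a, a p53 target linked to DNA repair, was at 43.4, 41.9 and 49.2 CPM in GFP+ cells, against 15.6, 18.3 and 16.3 CPM in GFP- cells (log2 fold change 1.42 ± 0.15, edgeR adjusted p = 2.94e-06). With the macrophage marker level as a covariate Gadd45a, at 0.63, Cd200, at -1.26, and Cd24a, at -0.89, were not called, with adjusted p of 0.243, 0.426 and 0.0858 in edgeR. Genes of class I antigen presentation gave 2 rises and 1 fall of 13 tested, below the shares of all genes. The median differences of these 13 within a line were 0.37, 0.92 and -0.032 in lines 1, 2 and 3.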
